A study of Mus musculus with 18 samples.

Results

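The genes of glucose uptake, glycolysis, lactate handling and glycogen turnover were followed in brown adipocytes with a knockdown of the lipolytic coactivator ABHD5, with or without its re-expression. The members were chosen by name, with earlier results of these data known, so their shares are not those of a list blind to the data. They are 37 genes for glucose and lactate transporters, hexokinases, phosphofructokinases and their bisphosphate regulators, the lower glycolytic enzymes, lactate dehydrogenases, and enzymes that build or break down glycogen. Of these, 36 had a row among the 17672 genes of the count table, and 31 passed the filter on low counts among the 10178 genes tested. Eno1 was not analysed here, and Slc2a3, Fbp2, Aldoc, Gys2 and Pygm had too few counts to be tested.

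All libraries came from cells of an immortalised mouse brown preadipocyte line, differentiated into brown adipocytes, in which a lentiviral shRNA stably lowers Abhd5 and a second virus carries an mCherry-tagged, shRNA-resistant ABHD5 in pINDUCER20 under the control of doxycycline (Dox). The labels call cells without Dox ABHD5 KD, and cells given 1 µg/ml Dox WT, although they carry the same shRNA and both viruses, so the rescued protein is the tagged transgene product. Dox was given for 24 to 48 h by the methods, and for 24 h by the paper's figure legend of this experiment. Each state received for 3 h the vehicle DMSO, isoproterenol (ISO, 10 nM), which stimulates beta-adrenergic receptors, or SR-3420 (20 µM), a synthetic ligand that releases ABHD5 from perilipin so that lipolysis starts without the receptor. The 6 groups held 3 libraries each, and the same DMSO libraries served as controls for both stimuli. No library combined Dox with cells that lack the transgene, so an effect of Dox itself and an effect of ABHD5 cannot be told apart.

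Glucose enters the cell through GLUT transporters and is trapped by hexokinase. Phosphofructokinase is the committed step of glycolysis, and the bifunctional PFKFB enzymes set the level of fructose 2,6-bisphosphate, its strongest activator. Lactate made at the end of the pathway leaves or enters through monocarboxylate transporters, while glucose 6-phosphate can instead be stored as glycogen, which phosphorylase breaks down after phosphorylase kinase has activated it. Brown adipose tissue is known for a high glucose uptake when sympathetic nerves stimulate it.

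Libraries held 689910 to 1956565 counts (median 1145729). In 24 of 35 members matched to the annotation the counted length lay within 10% of the intron length, although the methods name counting over genes. Among the other 11, it was 47.7% of the intron length for Gapdh and 121% for Aldoa. The share of unspliced RNA behind these values was not tested. Levels are given as CPM (counts scaled to a common library size, with TMM factors). Abhd5 itself had 47.2, 55.8 and 54.8 CPM in DMSO without Dox and 583, 656 and 484 CPM with Dox, and over all treatments 47.2 to 173 CPM without and 484 to 859 CPM with Dox. Reads of the transgene and of the endogenous gene cannot be told apart. The SR-3420 with Dox replicate 1 library stood apart, with 35.6% of its counts in its 10 most abundant genes against 16.3% to 26.5% in the other 17. Of 13 listed brown adipocyte markers, 12 had a row and 8 reached at least 10 counts in every library, whereas Ucp1 had at most 1 count in the DMSO libraries. The skeletal muscle genes Myod1, Myog, Myf5, Acta1, Ckm, Myh1, Myh2, Myh4 and Ttn, 9 of 11 listed, stayed at 3 counts or fewer in every library, as did the macrophage markers Ptprc and Itgam (of 6 with a row), the endothelial markers Cdh5 and Kdr (of 4) and the preadipocyte markers Cd34 and Thy1 (of 5). Others of these lists had counts, at most 59 for Des of muscle, 32 for Cd68 of macrophages, 27 for Tek of endothelium and 59, 40 and 12 for the preadipocyte genes Pdgfra, Ly6a and Dlk1.

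ISO raised many of these genes, and SR-3420 raised a smaller set in cells given Dox. ISO without Dox changed 16 of the 31 members at an adjusted p of 0.05 or less, 13 upward and 3 downward, where 14.5% of all genes tested rose and 13.5% fell. With library totals as the only scaling 6 rose and 5 fell, and the count of 16 became 9 without DMSO replicate 1 or 3. ISO with Dox changed 22, 19 upward and 3 downward, against 16.4% and 16.1% of all genes. SR-3420 changed 0 members without Dox, where 0.766% of all genes changed, although 6 members had an unadjusted p of 0.05 or less in the edgeR quasi-likelihood test and DESeq2 called 1. With the replicate number as a block 2 rose there. With Dox it changed 7 members, 6 upward and 1 downward, against 6.53% and 3.37% of all genes, and with the size factors of DESeq2 in edgeR 6 rose and 0 fell. With a limit of 2-fold besides, 3, 10 and 3 members passed in ISO without Dox, ISO with Dox and SR-3420 with Dox, compared with 10.9%, 13.1% and 3.1% of all genes, so that in ISO without Dox the members' share (9.68%) lay near that of all genes. Median log2 fold changes of the members were 0.42 and 0.55 for ISO without and with Dox and 0.01 and 0.19 for SR-3420, while the medians over all genes tested lay at -0.01, -0.02, 0.00 and -0.01. In these bulk samples fewer cells of a type and less RNA per cell cannot be told apart. The mean summed level of the brown adipocyte markers also moved with the stimuli, from 3513 CPM in DMSO to 4481 in ISO and 4598 in SR-3420 without Dox, and from 4054 to 6741 and 5773 with Dox. In ISO the summed preadipocyte markers were also higher than in DMSO, at 51.7 against 27.4 CPM without Dox and 51.0 against 37.9 CPM with Dox. The summed endothelial markers were at 22.8 against 9.46 CPM without Dox and 19.2 against 9.28 CPM with Dox. The endothelial sum was mostly Tek, at 20.2 against 8.48 CPM without Dox and 17.8 against 7.33 CPM with Dox, and the preadipocyte sum without Dox moved mostly through Ly6a, at 25.1 against 2.47 CPM. The part of these shifts in the results below was not tested.

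**Figure D1:**
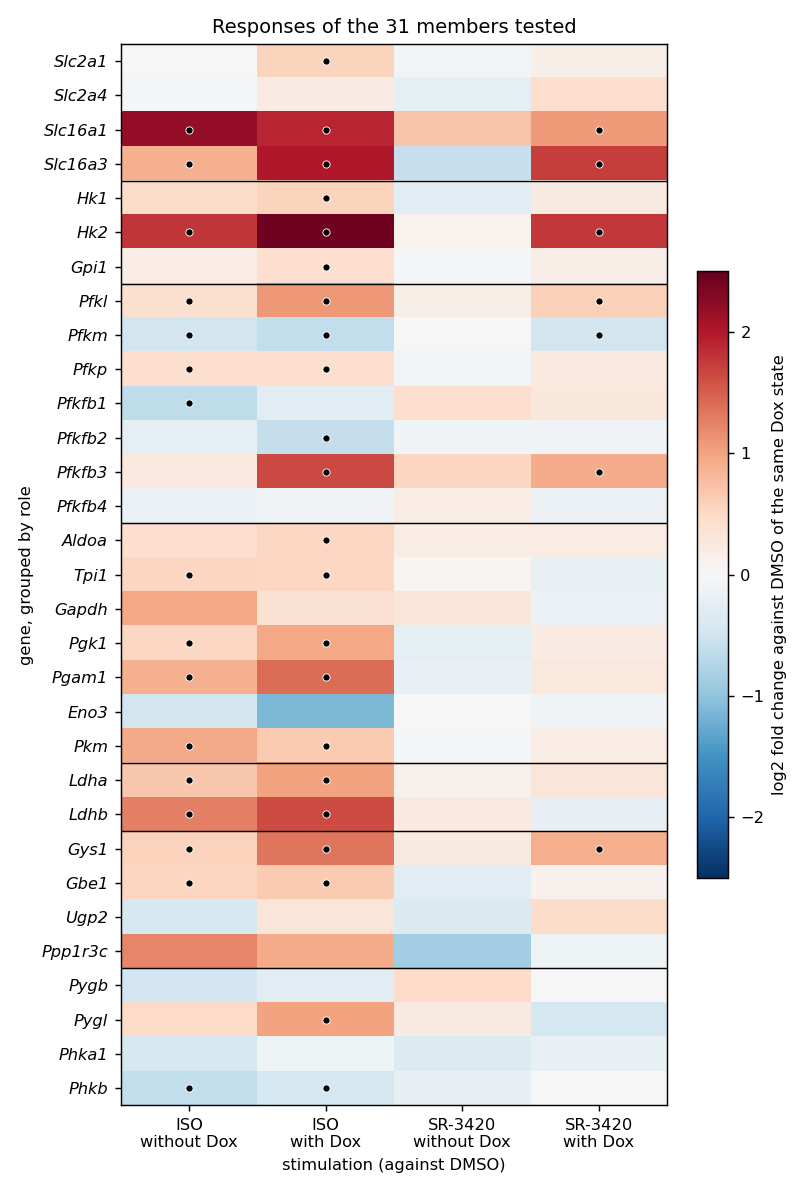
Heat map of log2 fold changes (colour scale, from blue for lower to red for higher) of the 31 members tested, in rows grouped by role, for ISO and SR-3420 against DMSO without and with Dox in columns; a black dot marks an adjusted p of 0.05 or less. Both ISO columns hold dots in most rows (16 and 22), the SR-3420 column without Dox holds 0 and the SR-3420 column with Dox holds 7.

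The promoters of Pfkfb3, Slc16a3, Hk2 and Slc16a1 are shown because these 4 genes had the largest changes among the 6 members that rose in SR-3420 with Dox. They were chosen after their values were seen, and Gys1 (log2 fold change 0.91) lay close behind Pfkfb3 (0.92). The promoters of Gys1 and Pfkl, which also rose and are not shown, held 0 matches of the letters marked below. They are RefSeq sequences on GRCm38.p6, a later build than the mm9 positions given for genes, and run from 250 bases before to 50 bases after an annotated start. Capitals mark TGACG, found in the cAMP response element, and ACGTG, the core of the hypoxia response element, on either strand; overlapping matches form 1 run of capitals.
Pfkfb3, chr2:11553880-11554179, minus strand: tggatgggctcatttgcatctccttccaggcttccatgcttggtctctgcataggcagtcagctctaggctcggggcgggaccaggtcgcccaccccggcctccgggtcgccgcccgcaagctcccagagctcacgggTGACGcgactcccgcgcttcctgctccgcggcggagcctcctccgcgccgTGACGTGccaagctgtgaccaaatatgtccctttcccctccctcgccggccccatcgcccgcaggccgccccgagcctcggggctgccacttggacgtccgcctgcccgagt
Pfkfb3, chr2:11502041-11502340, minus strand: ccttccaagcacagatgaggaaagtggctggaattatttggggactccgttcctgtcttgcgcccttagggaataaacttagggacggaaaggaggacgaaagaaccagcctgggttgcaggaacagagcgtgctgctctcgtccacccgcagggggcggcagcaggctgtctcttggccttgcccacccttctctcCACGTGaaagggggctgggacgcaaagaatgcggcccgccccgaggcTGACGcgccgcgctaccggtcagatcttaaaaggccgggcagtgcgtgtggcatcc
Slc16a3, chr11:120948817-120949116, plus strand: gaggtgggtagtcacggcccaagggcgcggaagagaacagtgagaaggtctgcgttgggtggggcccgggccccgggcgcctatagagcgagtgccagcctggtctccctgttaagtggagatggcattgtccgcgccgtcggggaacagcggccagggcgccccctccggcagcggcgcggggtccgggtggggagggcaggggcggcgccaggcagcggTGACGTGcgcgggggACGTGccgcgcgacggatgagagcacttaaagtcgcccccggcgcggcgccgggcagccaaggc
Hk2, chr6:82774405-82774704, minus strand: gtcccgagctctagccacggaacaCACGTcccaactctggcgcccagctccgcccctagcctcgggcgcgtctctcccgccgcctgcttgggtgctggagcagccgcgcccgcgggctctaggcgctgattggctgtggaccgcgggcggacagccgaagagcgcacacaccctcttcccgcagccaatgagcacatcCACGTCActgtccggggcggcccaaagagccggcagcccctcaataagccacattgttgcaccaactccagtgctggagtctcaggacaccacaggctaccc
Slc16a1, chr3:104638414-104638713, plus strand: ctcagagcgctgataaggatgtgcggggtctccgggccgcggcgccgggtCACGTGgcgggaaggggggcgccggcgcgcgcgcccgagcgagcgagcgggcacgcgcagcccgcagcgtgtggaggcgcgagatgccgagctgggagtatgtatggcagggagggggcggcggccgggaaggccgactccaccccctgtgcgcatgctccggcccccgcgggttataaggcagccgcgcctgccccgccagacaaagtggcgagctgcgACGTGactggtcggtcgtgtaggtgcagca

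Of the members, 33 matched the RefSeq promoters, with 49 promoters among them. ACGTG occurred on either strand in 25 of the 49, compared with 19.6% of all 32851 promoters of that length, and in at least 1 promoter of 21 of the 33 members. TGACG occurred in 13 of the 49 against 20.8% of all promoters. The full palindrome TGACGTCA, which contains TGACG, occurred in 1, that of Ldha, against 1.79%. CACGTG, an E-box that contains ACGTG, occurred in 7 of the 49 against 7.15%, and DR1, the repeat that PPAR receptors bind, in 0 against 0.0396%. These are matches of letters in these windows and describe the sequences only.

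Levels per counted kilobase put the members on a common scale, but whether the counted length matches the reads counted was not tested. Counted lengths were 3273 bases for Aldoa, 1476 for Tpi1 and 1127 for Gapdh, and 245033 for Gbe1. In DMSO without Dox they ran from 302 CPM per kb for Aldoa to 0.194 for Hk2, and the enzymes of the lower pathway took the highest places, with Tpi1 at 91.7, Gapdh at 54.1, Ldha at 44.3 and Pkm at 43.3 CPM per kb. The ranges of Gapdh, Ldha and Pkm overlapped. The insulin-responsive transporter Slc2a4 (32.5 ± 1.94, SD, n = 3) stood above Slc2a1 (2.16 ± 0.31), and among phosphofructokinase genes the order was Pfkl (8.30 ± 1.2), Pfkm (3.44 ± 0.53) and Pfkp (1.59 ± 0.29 CPM per kb). Before division by their counted lengths of 2174 and 26010 bases, Slc2a4 and Slc2a1 had means of 70.7 and 56.2 CPM.

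**Figure D2:**
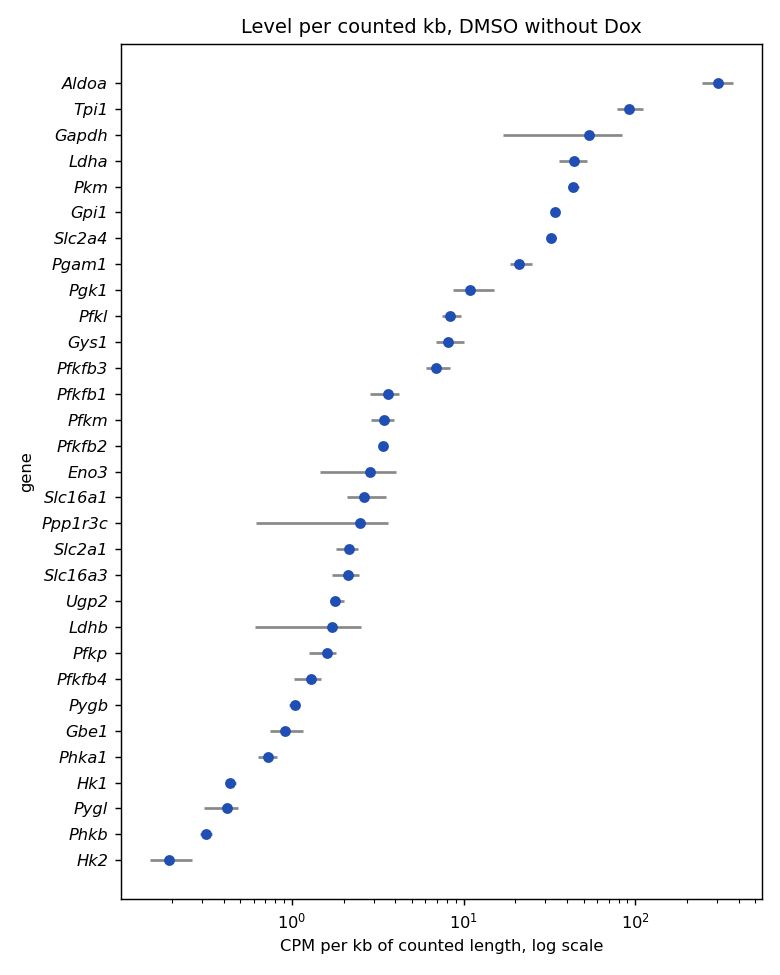
Level of the 31 tested members in DMSO without Dox, in CPM per kb of counted length on a log axis, with points for the mean and lines for the range of 3 libraries. Aldoa lies highest at 302 CPM per kb and Hk2 lowest at 0.194, and Gapdh, Ppp1r3c and Ldhb have the widest ranges.

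Among the transporters, both monocarboxylate carriers rose with ISO in either Dox state, whereas of the GLUT genes only Slc2a1 rose, with Dox. Slc16a1, which encodes the lactate and pyruvate carrier MCT1 (mm9, chr3:104442587-104462385), had 23.1, 39.4 and 25.4 CPM in DMSO and 191, 102 and 101 CPM in ISO without Dox. With Dox the values were 27.4, 36.4 and 47.2 CPM in DMSO, 133, 151 and 115 CPM in ISO and 75.6, 81.5 and 65.9 CPM in SR-3420. Every ISO library exceeded every DMSO library, and with Dox the SR-3420 libraries lay between them. The log2 fold change for ISO was 2.19 ± 0.25 (SE, adjusted p = 1.01e-07) without Dox, the largest of any member, and 1.91 ± 0.23 (adjusted p = 1.32e-07) with Dox. For SR-3420 it was 1.07 ± 0.24 with Dox (adjusted p = 0.00321) and 0.70 ± 0.27 without it (adjusted p = 0.347), and the interaction of SR-3420 with Dox was 0.37 ± 0.36 (adjusted p = 0.749). The call in SR-3420 with Dox was lost without DMSO with Dox replicate 1 (0.83, adjusted p = 0.0594).

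Slc16a3 encodes MCT4, the carrier best known for lactate export (mm9, chr11:120809798-120820314). Without Dox it had 19.6, 13.6 and 17.2 CPM in DMSO, 30.3, 21.8 and 41.3 in ISO and 8.71, 12.2 and 14.1 in SR-3420. With Dox it had 8.67, 20.8 and 15.7 CPM in DMSO, 62.5, 36.2 and 68.3 in ISO and 58.0, 37.8 and 40.9 in SR-3420. In the rescued cells all libraries of both stimuli exceeded all DMSO libraries, and in the knockdown cells the ISO libraries also did, by less. ISO raised it by a log2 fold change of 0.88 ± 0.33 (adjusted p = 0.0439) without Dox and 2.00 ± 0.30 (adjusted p = 6.81e-06) with Dox, and the interaction of 1.11 ± 0.46 missed the threshold (adjusted p = 0.234). SR-3420 gave -0.57 ± 0.37 (adjusted p = 0.726) without Dox and 1.73 ± 0.31 (adjusted p = 0.000307) with Dox, and here the interaction of 2.30 ± 0.49 passed (adjusted p = 0.0198). That interaction was the only one of SR-3420 to pass among the 31 members (2 with the replicate block), against 0.757% of all genes, and it was lost when any 1 of these libraries was left out: replicate 1 of SR-3420 or of DMSO in either Dox state, or replicate 3 of DMSO without Dox (1.89 to 2.29, adjusted p = 0.0575 to 0.0917). The ISO call without Dox was lost when any 1 of the 3 DMSO libraries, or ISO replicate 1 or 3, was left out (0.60 to 1.01). Slc16a3 shares 536 bases with Csnk1d on the other strand and no source used here says that counting was strand-specific.

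Slc2a1, the widely expressed transporter GLUT1, had 47.2, 58.5 and 62.9 CPM in DMSO and 59.4, 56.5 and 51.0 in ISO without Dox, where the libraries overlapped. In rescued cells it had 64.0, 69.7 and 64.0 CPM in DMSO and 110, 97.7 and 82.8 in ISO, which did not overlap. Its log2 fold change for ISO was 0.56 ± 0.15 with Dox (adjusted p = 0.0055) and -0.01 ± 0.17 without (adjusted p = 0.971), with an interaction of 0.57 ± 0.23 that missed the threshold (adjusted p = 0.225). With library totals as the only scaling the call with Dox was lost (0.43, adjusted p = 0.0784). Slc2a4, the insulin-responsive GLUT4, passed in none of the 4 responses, with log2 fold changes of -0.23 to 0.44. Slc2a3 had at most 1 count in any library. Slc2a1 overlaps Gm12868 over 3581 bases and Gm12867 over 710 bases on the other strand.

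At the entry to glycolysis, Hk2, the inducible hexokinase of insulin-sensitive tissues (mm9, chr6:82675021-82724448), showed the largest rise of any member with Dox. It had 6.23, 10.9 and 7.10 CPM in DMSO, 24.9, 36.7 and 21 in ISO and 7.55, 9.29 and 7.85 in SR-3420 without Dox. With Dox the values were 8.18, 10.4 and 5.62 CPM in DMSO, 45.9, 34.7 and 52.9 in ISO and 26.4, 28.8 and 29.0 in SR-3420. All libraries of ISO, and of SR-3420 with Dox, lay above all DMSO libraries, whereas SR-3420 without Dox overlapped DMSO. ISO raised it 3.46-fold without Dox (log2 1.79 ± 0.33, adjusted p = 0.000135) and 5.38-fold with Dox (2.43 ± 0.28, adjusted p = 9.43e-08). SR-3420 raised it 3.41-fold with Dox (1.77 ± 0.30, adjusted p = 0.000164) and gave 0.09 ± 0.38 without it (adjusted p = 0.988), and the interaction of 1.68 ± 0.50 missed the threshold (adjusted p = 0.113). These values rest on 5 to 55 counts a library.

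Hk1, the broadly expressed hexokinase, had 31.3, 51.0 and 42.7 CPM in DMSO and 62.5, 49.6 and 65.5 in ISO with Dox, and the libraries overlapped. Its log2 fold change there was 0.55 ± 0.20 (adjusted p = 0.0372), and the call was lost without DMSO or ISO replicate 1 or 3 (0.33 to 0.60). In DMSO without Dox, Hk1 exceeded Hk2 per kilobase (0.438 ± 0.030 against 0.194 ± 0.059 CPM per kb), and in ISO with Dox Hk2 had 1.07 ± 0.22 and Hk1 0.640 ± 0.091 CPM per kb. Gpi1, glucose 6-phosphate isomerase, had 830, 740 and 827 CPM in DMSO and 1267, 864 and 1072 in ISO with Dox, without overlap (0.42 ± 0.15, adjusted p = 0.0335). That call was lost when any 1 of the 3 DMSO libraries, or ISO replicate 1 or 3, was left out (0.28 to 0.46). On the other strand Hk1 overlaps 2210417K05Rik over 23112 bases, Gpi1 overlaps Gm17327 over 5482 and Hk2 overlaps Gm17034 over 3007, which leaves the values of these 3 genes uncertain.

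Of the 7 tested genes of phosphofructokinase and its regulators, ISO raised 2 and lowered 2 without Dox, where 14.5% of all genes rose and 13.5% fell. With Dox it raised 3 and lowered 2, against 16.4% and 16.1%. In groups this small such counts describe the genes only. Pfkfb3 encodes the PFKFB isoform with the highest ratio of kinase to phosphatase activity (mm9, chr2:11393058-11475556). Without Dox it had 466, 608 and 442 CPM in DMSO, 555, 660 and 584 in ISO and 639, 878 and 670 in SR-3420. With Dox it had 570, 733 and 627 CPM in DMSO, 2188, 1782 and 2113 in ISO and 1188, 1347 and 1117 in SR-3420. In the rescued cells each ISO library exceeded each SR-3420 library and each of these exceeded each DMSO library, whereas ISO and DMSO overlapped in the knockdown cells.

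The log2 fold change of Pfkfb3 for ISO was 1.66 ± 0.16 with Dox (adjusted p = 5.68e-09) and 0.25 ± 0.16 without (adjusted p = 0.273). The difference between these responses was 1.41 ± 0.23 (adjusted p = 0.000577), the only interaction of ISO with Dox to pass among the 31 members, where 2.18% of all genes passed. With the replicate number as a block 4 members passed. SR-3420 raised Pfkfb3 with Dox by 0.92 ± 0.16 (adjusted p = 0.000255) and gave 0.53 ± 0.16 without it (adjusted p = 0.174). For SR-3420 the interaction of 0.39 ± 0.23 missed the threshold (adjusted p = 0.518), and DESeq2 called the response without Dox (0.53, adjusted p = 0.0279), as did edgeR with the replicate number as a block (0.53, adjusted p = 0.0153).

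The other 3 regulators passed upward in none of the 4 responses, except that with the replicate block Pfkfb1 rose in SR-3420 without Dox (0.44, adjusted p = 0.034). Pfkfb1, the isoform first described in liver and muscle, had 143, 192 and 214 CPM in DMSO and 83.2, 133 and 131 in ISO without Dox. It fell by 0.64 ± 0.18 on the log2 scale (adjusted p = 0.00918) without overlap, and the call was lost without DMSO replicate 3 or ISO replicate 1 (-0.51 and -0.46). Pfkfb2, the isoform first described in heart, had 77.0, 96.8 and 85.4 CPM in DMSO and 56.7, 55.1 and 56.8 in ISO with Dox. It fell by 0.60 ± 0.17 (adjusted p = 0.00825) with no overlap between the groups. Pfkfb2 shares 4729 of its bases with Yod1 on the other strand, which leaves its values uncertain. Pfkfb4 gave -0.15 to 0.18 in the 4 responses and passed in none. Per kilobase, Pfkfb3 stood at 6.92 ± 1.23 CPM in DMSO without Dox, above Pfkfb1 (3.62 ± 0.72) and Pfkfb2 (3.39 ± 0.14), which did not differ beyond their spread, and in ISO with Dox the levels were 27.7 ± 2.96, 3.60 ± 0.31 and 2.67 ± 0.04 CPM per kb.

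**Figure D3:**
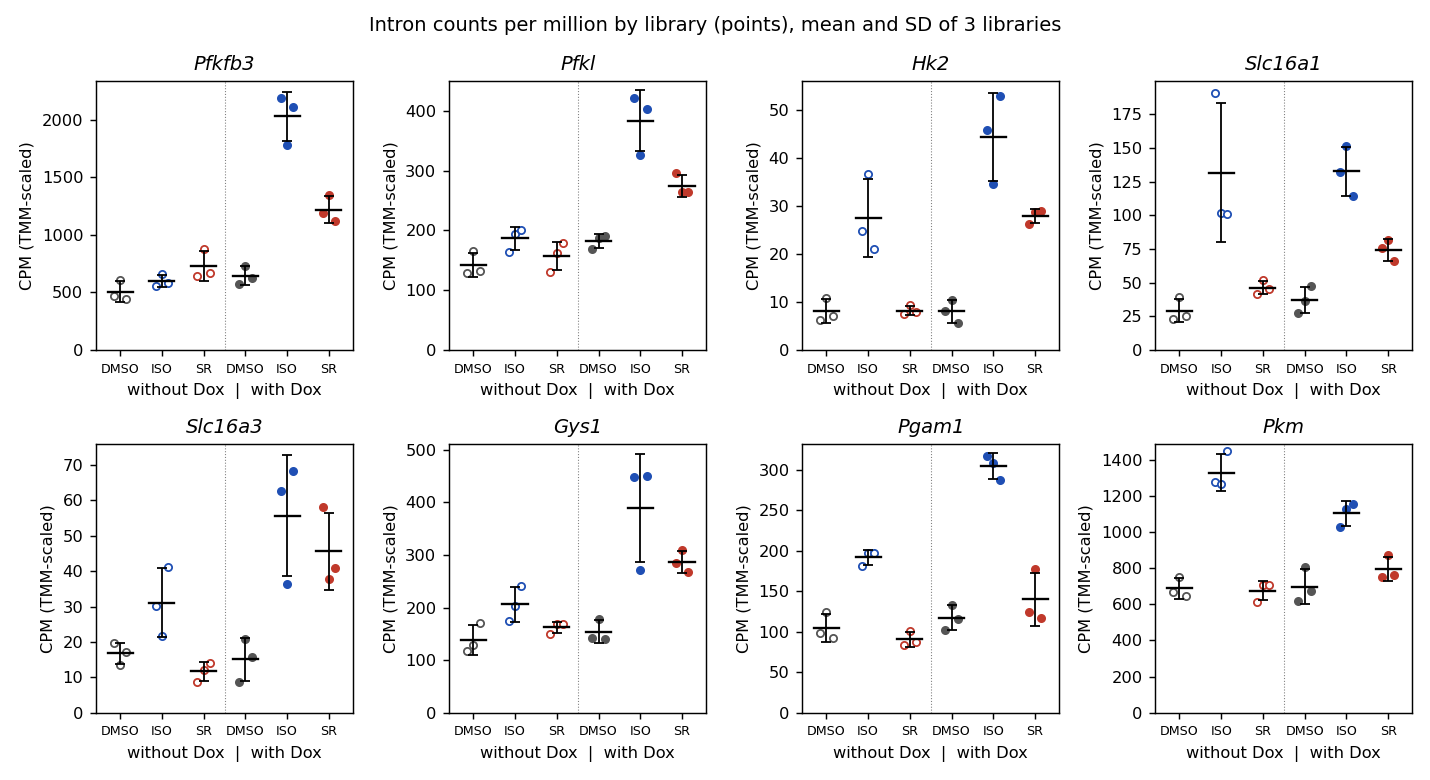
CPM of 8 members in each of the 18 libraries (points, open without and filled with Dox) for DMSO, ISO and SR-3420 (SR), with the mean as a horizontal line and the SD of 3 libraries as error bars. Pfkfb3 in ISO lies at 1782 to 2188 CPM with Dox and 555 to 660 without, whereas Pkm reaches 1263 to 1446 CPM in ISO without Dox and 1027 to 1157 with it.

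The liver-type subunit Pfkl (mm9, chr10:77449694-77472541) had 129, 166 and 132 CPM in DMSO and 164, 194 and 201 in ISO without Dox, which overlapped. In cells given Dox it had 169, 187 and 191 CPM in DMSO, 421, 326 and 403 in ISO and 296, 263 and 265 in SR-3420, with no overlap between the 3 groups. ISO raised it by 0.40 ± 0.15 (adjusted p = 0.0428) without Dox and 1.08 ± 0.14 (adjusted p = 7.2e-07) with Dox, and SR-3420 by 0.60 ± 0.14 with Dox (adjusted p = 0.00545). The interaction with ISO was 0.67 ± 0.20 (adjusted p = 0.081), and with the replicate block it passed (0.67, adjusted p = 0.0147). The call without Dox was lost without DMSO replicate 1 or 3 or ISO replicate 2 or 3 (0.33 to 0.38), and with library totals as the only scaling the calls in ISO without Dox (0.23) and SR-3420 with Dox (0.41) were lost.

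The muscle-type subunit Pfkm (mm9, chr15:97923020-97962878) went the other way. It had 117, 96.6 and 132 CPM in DMSO and 82.1, 79.3 and 89.3 in ISO without Dox. With Dox the values were 133, 119 and 108 CPM in DMSO, 87.5, 69.3 and 81.8 in ISO and 90.5, 87.5 and 87.9 in SR-3420. The stimulated libraries that passed lay below all DMSO libraries of their Dox state. Its log2 fold changes were -0.47 ± 0.15 (adjusted p = 0.0224) and -0.61 ± 0.15 (adjusted p = 0.00208) for ISO and -0.45 ± 0.15 (adjusted p = 0.0494) for SR-3420 with Dox. The call for ISO without Dox was lost without DMSO replicate 1 or 3 or ISO replicate 1 or 2 (-0.47 to -0.36), and that for SR-3420 on leaving out DMSO replicate 1 or 2 or any 1 SR-3420 library (-0.46 to -0.35).

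Pfkp, the platelet-type subunit, had 98.8, 103 and 72.0 CPM in DMSO and 134, 123 and 111 in ISO without Dox, and 104, 104 and 96.6 in DMSO and 125, 137 and 148 in ISO with Dox. Its log2 fold changes of 0.42 ± 0.15 (adjusted p = 0.0309) and 0.42 ± 0.14 (adjusted p = 0.0203) came without overlap. The call without Dox was lost without DMSO replicate 3 or ISO replicate 1 or 2 (0.27 to 0.43), and the call with Dox without DMSO or ISO replicate 3 (0.41 and 0.38). In ISO with Dox, Pfkl stood at 22.4 ± 2.95 CPM per kb, Pfkm at 2.38 ± 0.28 and Pfkp at 2.38 ± 0.20. Pfkm overlaps Senp1 over 981 bases and Pfkp overlaps Pitrm1 over 276 bases on the other strand. Fbp2, the opposing bisphosphatase, had at most 4 counts in any library.

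In the lower part of glycolysis, ISO raised 4 of 7 tested genes without Dox and 5 with Dox, where 14.5% and 16.4% of all genes rose. SR-3420 changed 0 of 7 in either state, where 0.766% of all genes changed without Dox and 6.53% rose and 3.37% fell with Dox. Pkm, pyruvate kinase (mm9, chr9:59504175-59527182), had 666, 752 and 644 CPM in DMSO and 1275, 1263 and 1446 in ISO without Dox. With Dox it had 619, 805 and 671 CPM in DMSO and 1027, 1125 and 1157 in ISO. Groups did not overlap in either state. ISO raised it by 0.95 ± 0.14 (adjusted p = 1e-05) without Dox and 0.66 ± 0.14 (adjusted p = 0.000643) with Dox, and the interaction was -0.29 ± 0.20 (adjusted p = 0.548).

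Pgam1, phosphoglycerate mutase (mm9, chr19:41986361-41993155), had 97.9, 124 and 92.3 CPM in DMSO and 182, 197 and 197 in ISO without Dox. With Dox the values were 103, 133 and 116 CPM in DMSO and 318, 309 and 287 in ISO. ISO and DMSO did not overlap, with log2 fold changes of 0.89 ± 0.16 (adjusted p = 8.89e-05) and 1.39 ± 0.15 (adjusted p = 2.06e-08). Pgk1, which makes ATP from 1,3-bisphosphoglycerate, had 135, 222 and 128 CPM in DMSO and 204, 259 and 218 in ISO without Dox, which overlapped, and 139, 207 and 156 in DMSO and 311, 342 and 315 in ISO with Dox, which did not. ISO raised it by 0.51 ± 0.18 (adjusted p = 0.0318) and 0.96 ± 0.17 (adjusted p = 7.4e-05). The call without Dox was lost without DMSO replicate 1 or 3 or ISO replicate 2 (0.36 to 0.41).

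Tpi1, triose phosphate isomerase, had 115, 163 and 128 CPM in DMSO and 180, 193 and 206 in ISO without Dox, and 160, 159 and 165 in DMSO and 227, 236 and 228 in ISO with Dox. It rose by 0.53 ± 0.14 (adjusted p = 0.00528) and 0.51 ± 0.13 (adjusted p = 0.00377) without overlap, and the first call was lost without DMSO replicate 1 (0.41). Aldoa, the main aldolase outside liver, had 1034, 1412 and 1211 CPM in DMSO and 1615, 1885 and 1698 in ISO with Dox. The log2 fold change there was 0.51 ± 0.17 (adjusted p = 0.0213), lost without DMSO replicate 1 or ISO replicate 2 (0.40 and 0.47). Without Dox it was 0.41 ± 0.17 (adjusted p = 0.0681), and with the replicate block this value passed (0.43, adjusted p = 0.00878). With library totals as the only scaling, neither Tpi1 call (0.35 and 0.38) nor the Aldoa call (0.38) passed. Eno3, the muscle enolase, had 4 to 26 counts a library and passed in no response, and Aldoc had 0 to 12 counts.

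Gapdh, often used as a reference gene, varied by replicate number and passed in no response in the fit that leaves this number out. In replicates 1, 2 and 3 it had 69.4, 19.0 and 94.4 CPM in DMSO, 148, 62.5 and 159 in ISO and 78.4, 29.0 and 133 in SR-3420 without Dox. With Dox the values were 96.3, 42.7 and 153 CPM in DMSO, 133, 76.4 and 169 in ISO and 78.2, 47.7 and 135 in SR-3420. Replicate 2 was lowest in all 6 groups. Its log2 fold changes for ISO were 0.97 ± 0.46 (adjusted p = 0.115) without Dox and 0.37 ± 0.42 (adjusted p = 0.534) with Dox, and without the filter on low counts the value without Dox passed (0.99, adjusted p = 6.9e-07). In each replicate number ISO exceeded DMSO in both Dox states, and with the replicate block ISO raised Gapdh by 0.44 with Dox (adjusted p = 0.0162) and by 1.01 without Dox (adjusted p = 5.52e-06). The fraction of variance within groups that followed the replicate number was 0.927 for Gapdh and 0.816 for Ldhb, against medians of 0.324 over members and 0.25 over all genes tested.

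**Figure D4:**
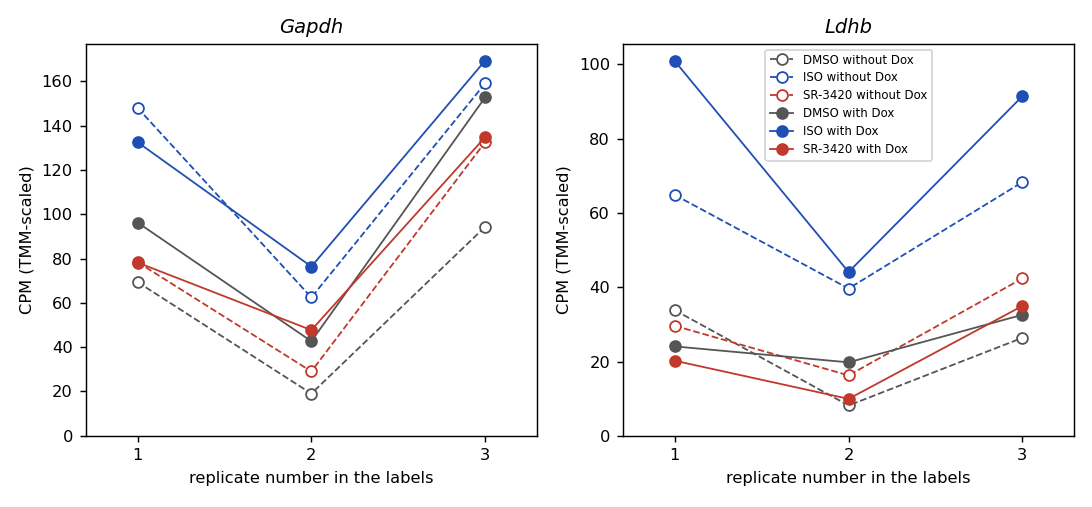
CPM of Gapdh and Ldhb against the replicate number in the labels, with a line joining the 3 libraries of each group (dashed and open without Dox, solid and filled with Dox). Replicate 2 is the lowest library of each of the 6 groups for both genes; lines only join libraries and replicates have no order.

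Both lactate dehydrogenase genes rose with ISO. Ldha, the subunit that favours lactate formation (mm9, chr7:54101174-54110997), had 286, 414 and 349 CPM in DMSO and 485, 605 and 579 in ISO without Dox. In rescued cells it had 386, 401 and 379 CPM in DMSO and 759, 733 and 847 in ISO. Groups did not overlap, and the log2 fold changes were 0.68 ± 0.15 (adjusted p = 0.00127) and 1.00 ± 0.15 (adjusted p = 5.97e-06). Ldhb, the subunit that favours lactate use, had 33.8, 8.16 and 26.4 CPM in DMSO and 64.8, 39.7 and 68.3 in ISO without Dox. With Dox it had 24.1, 19.8 and 32.6 CPM in DMSO and 101, 44.1 and 91.4 in ISO, again with no overlap. Its log2 fold changes were 1.26 ± 0.38 (adjusted p = 0.0134) and 1.64 ± 0.35 (adjusted p = 0.000548), and the first was lost without DMSO replicate 2 or ISO replicate 3 (0.94 and 1.11). For SR-3420 neither gene passed, with values of 0.11 and 0.30 for Ldha and 0.25 and -0.21 for Ldhb.

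Of the 4 tested genes that build glycogen, ISO raised 2 in each Dox state, Gys1 and Gbe1, where 14.5% and 16.4% of all genes rose. Gys1, glycogen synthase outside liver (mm9, chr7:52690209-52711987), had 117, 128 and 171 CPM in DMSO and 174, 203 and 241 in ISO without Dox. In cells given Dox it had 142, 179 and 140 CPM in DMSO, 448, 271 and 450 in ISO and 285, 309 and 268 in SR-3420. Stimulated and DMSO libraries did not overlap in these comparisons. ISO raised it by 0.57 ± 0.18 (adjusted p = 0.0173) without Dox and 1.34 ± 0.17 (adjusted p = 5.21e-07) with Dox, with an interaction of 0.77 ± 0.25 (adjusted p = 0.1) that passed with the replicate block (0.76, adjusted p = 0.0191), and SR-3420 raised it by 0.91 ± 0.17 with Dox (adjusted p = 0.000607). The call in ISO without Dox was lost without DMSO replicate 1 or 2 or ISO replicate 3 (0.45 to 0.53). Gys1 shares 3258 bases with Ruvbl2 on the other strand, so its values are uncertain.

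Gbe1, the branching enzyme, had 203, 286 and 183 CPM in DMSO and 276, 351 and 336 in ISO without Dox, which overlapped, and 186, 293 and 187 in DMSO and 343, 369 and 332 in ISO with Dox, which did not. It rose by 0.53 ± 0.19 (adjusted p = 0.0344) and 0.66 ± 0.19 (adjusted p = 0.00678). The first call was lost without DMSO replicate 1 or 3 or ISO replicate 2 or 3 (0.40 to 0.51) and the second without DMSO replicate 1 (0.54). Gbe1 overlaps 4930423O20Rik over 567 bases on the other strand. Gys2, the liver isoform of glycogen synthase, was not tested. It had 0, 1 and 0 counts in DMSO and 2, 6 and 8 in ISO without Dox, and 3, 1 and 1 in DMSO and 17, 10 and 11 in ISO with Dox. Against a floor of 3 counts per DMSO library the mean of the ISO libraries was at least 1.44-fold higher without Dox and at least 4.11-fold higher with Dox, with no test. The first bound holds for the mean only, since ISO replicate 1 without Dox had 2 counts.

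Ugp2, which makes UDP-glucose, passed in none of the 4 responses (-0.41 and 0.31 for ISO, -0.36 and 0.46 for SR-3420), although with the replicate block the last value passed (0.47, adjusted p = 0.0248). Its interactions with ISO and with SR-3420 also passed with that block (0.73 and 0.84, adjusted p = 0.0419 and 0.0192). Ppp1r3c, which targets protein phosphatase 1 to glycogen, had 0 to 22 counts a library and log2 fold changes of 1.23 ± 0.50 (adjusted p = 0.0669) and 0.94 ± 0.76 (adjusted p = 0.37) for ISO. With the replicate block the value without Dox passed (1.23, adjusted p = 0.0373).

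Among genes of glycogen breakdown, ISO lowered 1 of 4 tested genes in each Dox state and raised 1 with Dox, counts near the 13.5% to 16.4% of all genes called in a direction. Pygl, the liver isoform of phosphorylase, had 21.7, 26.0 and 20.2 CPM in DMSO and 54.2, 37.8 and 44.3 in ISO with Dox. It rose by 1.01 ± 0.24 (adjusted p = 0.00169) without overlap, and without Dox the value was 0.49 ± 0.32 (adjusted p = 0.268), with an interaction of 0.52 ± 0.40 (adjusted p = 0.604). Phkb, the beta subunit of phosphorylase kinase, had 59.6, 63.9 and 70.0 CPM in DMSO and 35.7, 40.6 and 48.8 in ISO without Dox, and 65.5, 76.0 and 65.2 in DMSO and 51.7, 49.6 and 50.1 in ISO with Dox. It fell by 0.61 ± 0.17 (adjusted p = 0.00741) and 0.44 ± 0.16 (adjusted p = 0.0305) without overlap. The second call was lost on leaving out DMSO replicate 2 or 3 or any 1 ISO library (-0.46 to -0.37). Phkb overlaps Gm16167 over 1065 bases on the other strand. Pygb and Phka1 passed in no response, except that with the replicate block Phka1 fell in ISO without Dox (-0.40, adjusted p = 0.0440). Pygm had 1 to 19 counts a library.

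The ISO calls in the 2 Dox states were compared by name. All 13 members that rose without Dox also rose with Dox, where they made up 68.4% of the 19. Of all genes that rose without Dox 63.7% rose with Dox, where they made up 56.1%. Among members, Pfkm and Phkb were shared among the 3 that fell in each state. In the fit without the replicate block, Slc2a1, Hk1, Gpi1, Pfkfb3, Aldoa and Pygl passed upward only with Dox. Of these the interaction passed only for Pfkfb3, with or without that block, and with it Aldoa also rose without Dox (0.43, adjusted p = 0.00878). The median interaction of ISO with Dox was 0.22 over the 31 members and -0.01 over all genes, on the log2 scale.

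**Figure D5:**
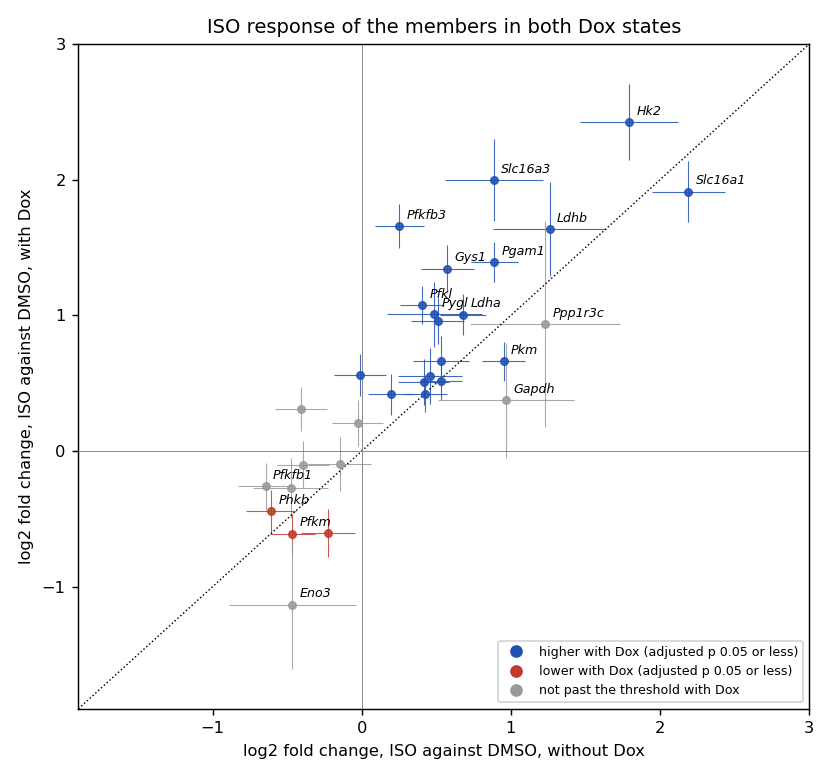
Log2 fold change of ISO against DMSO without Dox (horizontal axis) and with Dox (vertical axis) for the 31 tested members, with SE bars, coloured by the call with Dox; the dotted line marks equal responses. Pfkfb3 lies farthest above the line (0.25 and 1.66), and Slc16a1 (2.19 and 1.91) and Pkm (0.95 and 0.66) lie below it.

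Dox alone, without a stimulus, changed 0 of the 31 members in the edgeR quasi-likelihood test, where 1.18% of all genes changed. In that test 6 members, and 1000 of the 10178 genes tested, had an unadjusted p of 0.05 or less. Of these 6, Pygl (0.76), Pfkl (0.36), Pfkfb3 (0.35) and Gpi1 (0.34) were higher with Dox, and Ppp1r3c (-1.69) and Phka1 (-0.36) were lower. Log2 fold changes were positive for 23 members, against 50.4% of all genes. DESeq2 also called 0, whereas Gapdh passed with the replicate block (0.64, adjusted p = 0.0246) and also passed without the filter on low counts. Under ISO, Dox raised 13 and lowered 1, against 7.92% and 4.82% of all genes, and with library totals as the only scaling 7 rose and 1 fell. Pfkfb3 had the largest rise, with 1.76 ± 0.17 (adjusted p = 1.17e-08), followed by Pygl (1.28 ± 0.25, adjusted p = 0.000622), Pfkl (1.03 ± 0.14, adjusted p = 4.5e-06), Gys1 (0.91 ± 0.17, adjusted p = 0.00029) and Slc2a1 (0.81 ± 0.16, adjusted p = 0.000596). Ugp2, at 55.1, 58.5 and 55.5 CPM without and 79.2, 113 and 77.0 CPM with Dox, rose by 0.67 ± 0.17 (adjusted p = 0.00632), a call lost without ISO with Dox replicate 2 (0.49). The member that fell, Ppp1r3c, had 11.9, 12.9 and 16.5 CPM without and 0.834, 1.58 and 8.66 CPM with Dox (-1.98 ± 0.53, adjusted p = 0.0114), and it was lost without ISO without Dox replicate 3 or ISO with Dox replicate 1 or 2 (-1.80 to -1.51). In DMSO its difference with Dox was -1.69 ± 0.71 (adjusted p = 0.399), and its interaction with ISO was -0.29 ± 1.05 (adjusted p = 0.942). With a limit of 2-fold the count was 4, against 4.69% of all genes. The count of 14 became 9 without ISO without Dox replicate 1 and 8 without ISO with Dox replicate 1. Hk2, Gpi1, Pfkfb1, Pgk1, Pgam1, Ldha and Slc16a3 were also higher, by 0.49 to 0.80, and of these 7 only Pgam1 kept its call whichever library was left out. Between the Dox states under ISO, Pkm (-0.27 ± 0.14, adjusted p = 0.232) and Slc16a1 (0.03 ± 0.19, adjusted p = 0.94) missed the threshold. With the replicate block Aldoa was also higher with Dox (0.40, adjusted p = 0.0252).

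Under SR-3420, Dox raised 10 members and lowered 0, against 7.26% and 4.28% of all genes. Slc16a3 (1.99 ± 0.30, adjusted p = 3.9e-05) and Hk2 (1.75 ± 0.29, adjusted p = 9.75e-05) differed most. Gys1 (0.82 ± 0.17, adjusted p = 0.00131), Pfkl (0.81 ± 0.14, adjusted p = 0.00019), Ugp2 (0.78 ± 0.16, adjusted p = 0.00128) and Pfkfb3 (0.74 ± 0.16, adjusted p = 0.00249) followed. Slc16a1, Pgam1, Gpi1 and Pfkp were also higher with Dox, by 0.48 to 0.68, and each of these 4 lost its call in at least 2 of the 6 fits without 1 library. Slc16a1 lost it in all 6 (0.60 to 0.77, adjusted p = 0.0540 to 0.162). With library totals as the only scaling 6 members rose and 1 fell. With the replicate number as a block 16 passed, and of those gained only Pfkm was lower with Dox (-0.39, adjusted p = 0.0235). Without SR-3420 with Dox replicate 1, the library that stood apart, the count was 9 and SR-3420 against DMSO with Dox gave 7 members, each upward. With a limit of 2-fold the count was 2, against 3.4% of all genes. The count of 10 became 6 without SR-3420 without Dox replicate 1.

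Beyond the members, 62 other genes of the same pathways were listed, of which 58 had a row and 38 were tested. ISO raised 4 (10.5%) and lowered 4 (10.5%) without Dox, below the 14.5% and 13.5% of all genes. With Dox it raised 7 (18.4%) and lowered 9 (23.7%), where 16.4% and 16.1% of all genes did so. SR-3420 changed 0 without Dox, against 0.766% of all genes, and 1 in each direction (2.63%) with Dox, against 6.53% and 3.37%. Emb, which encodes embigin, a partner that brings monocarboxylate carriers to the membrane, rose with ISO by 1.63 ± 0.20 (adjusted p = 4.8e-07) and 1.98 ± 0.21 (adjusted p = 1.4e-08). Gyg, glycogenin, the primer of glycogen, rose by 0.86 ± 0.19 (adjusted p = 0.0011) and 1.07 ± 0.16 (adjusted p = 9.4e-06), and with SR-3420 and Dox by 0.55 ± 0.17 (adjusted p = 0.038). Mpc1, a subunit of the mitochondrial pyruvate carrier, rose under ISO with Dox by 1.25 ± 0.16 (adjusted p = 3.4e-07) and gave 0.42 ± 0.17 without (adjusted p = 0.0637), with an interaction of 0.83 ± 0.23 (adjusted p = 0.049).

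That list also holds genes of phosphorylase kinase. Phka2, an alpha subunit, had 204, 132 and 178 counts in DMSO and 49, 78 and 99 in ISO without Dox, a log2 fold change of -1.39 ± 0.16 (adjusted p = 2e-07), and with Dox it was -0.95 ± 0.15 (adjusted p = 2.3e-05). Phkg1 and Phkg2, catalytic gamma subunits, fell under ISO with Dox by 1.09 ± 0.32 (adjusted p = 0.0093) and 1.04 ± 0.26 (adjusted p = 0.0026), and without Dox their values of -0.17 and -0.60 missed the threshold. Phka1, the other alpha subunit and a member, gave -0.39 without Dox (adjusted p = 0.0921) and -0.10 with Dox (adjusted p = 0.695). Pgm1, a phosphoglucomutase family gene on chromosome 5, rose under ISO without Dox by 1.16 ± 0.28 (adjusted p = 0.0026). The gene listed as 9630033F20Rik, an older symbol of Tigar, whose product lowers fructose 2,6-bisphosphate, rose under ISO without Dox by 1.57 ± 0.43 (adjusted p = 0.0072). With Dox, the GLUT family genes Slc2a9 and Slc2a13 and the muscle-type mutase Pgam2 fell under ISO by 1.09 ± 0.32, 1.18 ± 0.25 and 1.07 ± 0.25 (adjusted p = 0.0094, 0.00068 and 0.0016). Pgm2l1, glucose 1,6-bisphosphate synthase, fell by 1.17 ± 0.36 under SR-3420 with Dox (adjusted p = 0.035).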

How the data were processed

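Total RNA from 18 libraries was sequenced (TruSeq). By the methods and processing notes, the authors used STAR 2.4.2a on mm9, HOMER with 1 read kept per position and read length, which caps counts where reads pile up, and iRNA-seq for counting. They deposited raw counts of reads per gene. Of 16536 genes matched to GENCODE vM1, 72.6% had a counted length within 10% of their intron length; strand use is not given in the sources used here. Starts are counted from 1.

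Groups came from sample titles. The 10178 genes passing filterByExpr were fitted with edgeR 4.0.16 (quasi-likelihood, TMM, 1 mean per group) in R 4.3.3, with Benjamini-Hochberg adjustment over all of them, two-sided, and calls at an adjusted p of 0.05 or less. SE is the log2 fold change divided by the root of F. The code was tested on simulated data. Members with an adjusted p of 0.05 or less in any of 4 responses are given by library; other pathway genes were named if they also changed at least 2-fold. The members and lists were chosen with earlier results of these data known. Every same-numbered pair of libraries deviated together (r over 0.1) in ISO with Dox, both SR-3420 responses and Dox in ISO, but not in the other comparisons. The methods state 3 independent experiments; p-values measure the spread between these libraries. Figures used matplotlib 3.10.9. Alternatives were DESeq2 1.42.0, other scalings and filters, a fold limit, a replicate block and leaving out each library.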

Additional observations from a re-analysis of the deposited data

Results flagged for a closer look

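Interactions were flagged for 2 members because their response to a stimulus differed between Dox states by the test of the difference itself. Pfkfb3 responded more to ISO with Dox than without, with an interaction of 1.41 on the log2 scale, and every ISO library with Dox (1782 to 2188 CPM) lay above every ISO library without Dox (555 to 660 CPM). This call held in all alternatives run. Slc16a3 responded more to SR-3420 with Dox than without, with an interaction of 2.30, and the SR-3420 libraries lay at 37.8 to 58.0 CPM with Dox and 8.71 to 14.1 CPM without. That call was lost on leaving out 1 library in 5 of 12 cases, SR-3420 with Dox replicate 1 among them. The cause of either difference was not tested.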

How the results depend on the processing

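No value turned its direction where it had been called. Of 45 calls of members in the 4 responses, 24 held in every alternative and 21 were lost in at least 1, and of 79 values that had missed the threshold 13 passed in at least 1. With a limit of 2-fold the counts of members changed were 3 for ISO without Dox, 10 for ISO with Dox, 3 for SR-3420 with Dox, 4 for Dox in ISO and 2 for Dox in SR-3420. DESeq2 gave 1 for SR-3420 without Dox (Pfkfb3) and 2 interactions with ISO, and it lost the calls of Pfkl, Pfkp, Ldhb and Slc16a3 in ISO without Dox, Hk1 and Phkb in ISO with Dox and Pfkm in SR-3420 with Dox. Without a filter on low counts, 1 member (Gapdh) changed with Dox in DMSO and 2 had an interaction with ISO. Library totals as the only scaling gave 8 for Dox in ISO. They moved the median of all genes by -0.18 (ISO without Dox), -0.14 (ISO with Dox), -0.19 (SR-3420 with Dox), -0.22 (Dox in SR-3420) and -0.14 (interaction of SR-3420), and ISO then raised 6 and lowered 5 members without Dox and raised 13 and lowered 4 with Dox.

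Leaving out 1 library at a time gave 9 to 15 members for ISO without Dox (9 without DMSO replicate 1 or 3), 18 to 22 for ISO with Dox, 0 for SR-3420 without Dox, 5 to 7 for SR-3420 with Dox, 0 for Dox in DMSO, 8 to 12 for Dox in ISO, 6 to 10 for Dox in SR-3420, 1 to 3 for the ISO interaction (3 without ISO with Dox replicate 2), 0 to 1 for the SR-3420 interaction and 16 to 19 for other pathway genes, 18 of which had changed in a response. Libraries with the same replicate number correlated in their deviations at r = 0.039 to 0.277 (36 of 45 pairs over 0.1), and 18 of 18 correlated best with their own number, a hint from the data and not from the labels. With the replicate number as a block, no call of the fit without it was lost. ISO without Dox then changed 20 members (Aldoa, Gapdh, Phka1 and Ppp1r3c besides), ISO with Dox 23 (Gapdh), SR-3420 without Dox 2 (Pfkfb3 and Pfkfb1), SR-3420 with Dox 8 (Ugp2), Dox in DMSO 1 (Gapdh), Dox in ISO 15 (Aldoa) and Dox in SR-3420 16 (Pfkm, Pgk1, Slc2a4, Ldha, Slc2a1 and Gbe1). The ISO interaction passed for 4 (Ugp2, Pfkl and Gys1 besides Pfkfb3) and the SR-3420 interaction for 2 (Ugp2 besides Slc16a3). Among the members gained, Phka1 fell in ISO without Dox and Pfkm was lower with Dox in SR-3420. Shares of all genes called with the block are not given here, so these counts describe the members only. The cause of these changes was not tested. Low counts limit Hk2, Ppp1r3c, Eno3 and the untested members.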
